A study of Homo sapiens with 9 samples.

Results

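The insulin-like growth factor (IGF) ligands and their binding proteins were read from the deposited gene counts by symbol. The set comprised 9 of the 28216 genes in the table, namely the ligands IGF1 and IGF2 and the binding proteins IGFBP1 to IGFBP7, and all 9 had a row. RNA had been sequenced from 9 libraries in 3 groups of 3, in a study of sortilin and syndecan-1 in prostate cancer cell lines. PC3 and LNCaP are established human lines. They served as models of later and earlier disease, although both were grown from prostate cancer metastases. PC3 cells were untreated and grew in F12K medium with fetal bovine serum. LNCaP cells (clone FCG) were first kept in phenol red-free RPMI medium with charcoal-stripped serum, which holds little steroid, and then received 10 nM androgen or 0.01% ethanol as vehicle for 48 h. For the androgen the sample labels name DHT (dihydrotestosterone), whereas the main text of the study names the synthetic androgen R1881, and the group is called LNCaP + DHT here. Since the 2 lines grew in different media and serum, line and culture conditions cannot be told apart. The labels do not say whether the replicates were separate cultures. The study's general statement on statistics speaks of independent experiments, and its RNA model has a batch term, but neither ties a library to an experiment, so p-values measure the spread between these libraries, which may be technical in part.

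IGF1 and IGF2 are secreted peptides that signal for growth and survival through the receptor tyrosine kinase IGF1R, while IGF2R takes up IGF2 for degradation. IGFBP1 to IGFBP6 bind the ligands with high affinity in the extracellular space, lengthen their life and keep them from the receptor, until proteases cleave the binding protein and set the ligand free. IGFBP7 binds the ligands only weakly. In the prostate, stromal cells are a main local source of ligand, and several kallikreins made by luminal epithelium, among them PSA (KLK3), cleave IGFBP3.

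Counts on genes summed to 17397706 to 25640325 per library. Levels in CPM are counts scaled to a common library size with TMM factors over the 9 libraries, and a count of 0 is compatible with up to 3 counts, or 0.117 to 0.172 CPM depending on the library, for counting error alone. The luminal markers KLK3 and FOLH1 reached 9831 to 88995 and 20441 to 25204 counts in LNCaP libraries, against 2 to 20 and 0 to 7 in PC3 libraries. HOXB13, a luminal marker of the same list, did not separate the lines this way, with 11622 to 20449 counts in PC3 and 8355 to 10560 in LNCaP libraries. The PC3 markers VIM and CD44 reached 26319 to 32841 and 7476 to 8863 counts in PC3 libraries, against 23 to 272 and 6 to 50 in LNCaP libraries. Both were higher in replicate 1 of each LNCaP group than in replicates 2 and 3. The epithelial markers EPCAM, KRT8 and KRT18 were above 30 CPM in every library. Among markers of other cell types, CD3E was at 0 in every library and DCN at 2 counts or fewer, whereas COL1A1 was at 12.3 to 42.0 CPM in all groups and the endothelial markers VWF and PECAM1 went opposite ways, VWF at 6.84 to 17.9 CPM in LNCaP libraries and 1 to 2 counts in PC3 libraries, PECAM1 at 1.87 to 3.35 CPM in PC3 libraries and 0 to 1 counts in LNCaP libraries. The leukocyte marker PTPRC had 4 to 7 counts in PC3 libraries and 0 in LNCaP libraries. Of the fibroblast markers, COL1A2 had 0 to 6 counts in PC3 libraries and 0 in LNCaP libraries. LUM had 12 to 26 counts in PC3, 1 to 5 in LNCaP + DHT and 19 to 23 in LNCaP + vehicle libraries.

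PC3 and LNCaP cells held different binding proteins. By level per kb of exon, IGFBP4 led in PC3 cells, followed by IGFBP6 and IGFBP5, whereas in both LNCaP groups IGFBP2 led, followed by IGFBP3. In CPM without division by exon length, IGFBP5 stood above IGFBP6 in PC3 cells, at means of 237 and 75.5. Per kb of exon, IGFBP4 stood at 457 ± 126 CPM per kb (SD, n = 3) in PC3 cells, IGFBP6 at 56.1 ± 4.50 (SD, n = 3), IGFBP5 at 36.6 ± 13.1 (SD, n = 3), IGFBP3 at 6.70 ± 1.45 (SD, n = 3) and IGFBP2 at 0.473 ± 0.024 (SD, n = 3). The ranges of IGFBP6 and IGFBP5 overlapped in PC3 cells, and those of the other neighbours among these 5 genes did not. In LNCaP + DHT cells IGFBP2 stood at 6.53 ± 0.660 CPM per kb (SD, n = 3) and IGFBP3 at 2.84 ± 0.433 (SD, n = 3), without overlap, and IGFBP4, IGF1, IGFBP6 and IGFBP5 followed with overlapping ranges. In LNCaP + vehicle cells IGFBP2 stood at 15.2 ± 0.443 CPM per kb (SD, n = 3), IGFBP3 at 1.86 ± 0.416 (SD, n = 3) and IGF1 at 0.454 ± 0.075 (SD, n = 3), and the range of IGF1 overlapped that of IGFBP4. In such bulk samples, fewer cells that express a gene and less of its RNA per cell cannot be told apart. The sum over the 9 genes had a median of 501 CPM per kb in PC3 libraries, 9.70 in LNCaP + DHT libraries and 17.9 in LNCaP + vehicle libraries.

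**Figure D1:**
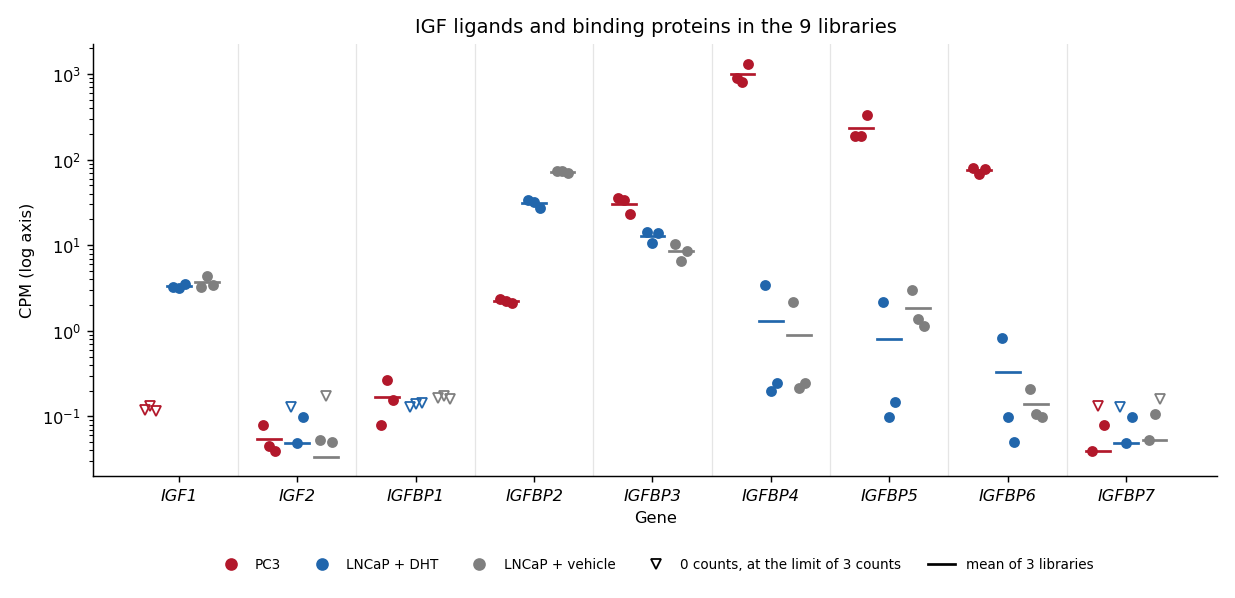
CPM of the 9 genes in each library on a log axis, with a line at the mean of 3 libraries. Filled points are libraries with counts and open triangles are libraries with 0 counts, drawn at the limit of 3 counts. IGFBP4, IGFBP5 and IGFBP6 are high in PC3 libraries, IGF1 and IGFBP2 in LNCaP libraries, and IGF2 and IGFBP7 have 0 to 2 counts everywhere.

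As a share of this sum, IGFBP4 made up 80.6% to 83.9% in PC3 libraries. IGFBP2 made up 53.6% to 69.6% in LNCaP + DHT libraries and 78.1% to 86.5% in LNCaP + vehicle libraries, and these ranges did not overlap. IGFBP3 made up between 8.0% and 11.5% with vehicle and between 24.1% and 31.8% with DHT, and these ranges did not overlap either. A share also depends on the other genes in the sum. From vehicle to DHT the mean level of IGFBP2 went from 15.2 to 6.53 CPM per kb, and that of IGFBP3 from 1.86 to 2.84. In replicate 1 of LNCaP + DHT, IGFBP4 made up 12.0%, against 0.917% and 1.19% in the other replicates.

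**Figure D2:**
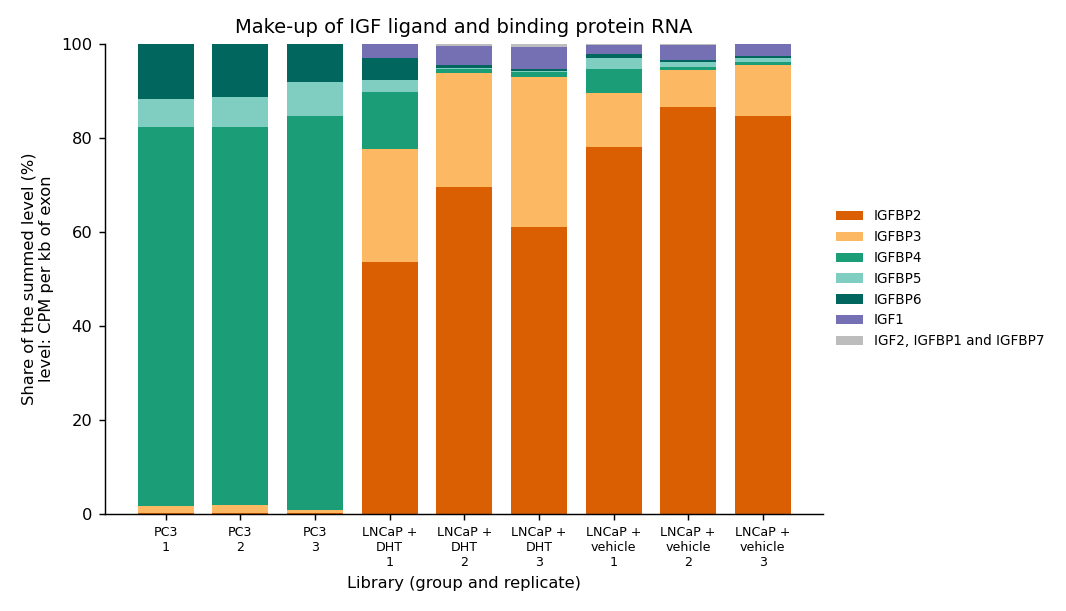
Share of each gene in the summed level (CPM per kb of exon) of the 9 genes, as stacked bars from 0 to 100% for each library. IGFBP4 fills over 80% of each PC3 bar, and IGFBP2 with IGFBP3 fills most of each LNCaP bar.

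Each pair of groups was compared with edgeR's quasi-likelihood test across all genes above the expression filter (more than 3 CPM in at least 3 libraries of the pair), and a called gene had a Benjamini-Hochberg adjusted p under 0.05 together with a change of 2-fold or more. For PC3 against LNCaP + DHT, 6 of the 9 genes passed the filter and all 6 were called (PC3 higher for 4, lower for 2), beside 46.0% of all genes tested (24.0% higher and 22.1% lower). For PC3 against LNCaP + vehicle, 6 passed and 6 were called, 4 higher and 2 lower, beside 43.2% of all genes (22.2% higher and 21.0% lower). IGFBP4, IGFBP5 and IGFBP6 passed through their PC3 level, and IGF1 and IGFBP2 through their LNCaP level, so these 5 calls followed from the filter in part, and the counts and p-values between the lines are given for them as a description. IGFBP3 alone was above 3 CPM in all groups. The median log2 fold change over the 6 genes was 4.50 and 4.40 in these comparisons, against 0.04 and 0.03 over all genes tested. The single values ran from -9.24 (IGF1) to 9.54 (IGFBP4) and from -9.34 to 10.13. With 5 of the 6 genes passing through 1 line, these medians also followed in part from the filter and show no common shift. For LNCaP + DHT against LNCaP + vehicle, 3 of the 9 genes passed and 1 was called, which was lower with DHT, beside 14.0% of all genes (6.54% higher and 7.49% lower). The LNCaP libraries each enter 2 of these comparisons, and so do the PC3 libraries, hence the comparisons are not independent.

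Among the ligands, IGF1 was the only gene with reads well above the counting limit, and it was detected in LNCaP cells alone. IGF1 (chromosome 12 of GRCh38, 102395874 to 102481744, minus strand) is the main mediator of growth hormone action. It had 0 counts in each PC3 library, 71, 65 and 71 counts in LNCaP + DHT replicates 1 to 3, and 62, 82 and 69 counts in LNCaP + vehicle replicates 1 to 3. All 6 LNCaP libraries were above all PC3 libraries, and the LNCaP groups overlapped. With 3 counts allowed in each PC3 library, IGF1 was at least 26.8-fold lower in PC3 cells than in LNCaP + DHT cells and at least 29.6-fold lower than in LNCaP + vehicle cells (adjusted p = 6.45e-06 and 1.29e-05 from edgeR). Between the LNCaP groups its mean was 3.33 ± 0.175 CPM (SD, n = 3) with DHT and 3.68 ± 0.607 (SD, n = 3) with vehicle. The log2 fold change of -0.17 (standard error, SE, 0.16, edgeR adjusted p = 0.337) did not pass the test.

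IGF2 (chromosome 11, 2129112 to 2158391, minus strand), an imprinted fetal growth factor, had 0 to 2 counts in each of the 9 libraries, so no level or difference was detectable at this depth. Of the 74-nt stretches of its transcripts, 38.8% also occur in INS-IGF2 and other genes annotated over it, so reads from those genes could not have been told apart from IGF2. H19, the noncoding RNA transcribed from the neighbouring part of the same imprinted locus, had 0 to 3 counts.

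The binding proteins that led in PC3 cells were IGFBP4, IGFBP5 and IGFBP6. IGFBP4 (chromosome 17, 40443450 to 40457725, plus strand) mostly inhibits IGF action and is cleaved by the metalloproteinase PAPPA. It had 22373, 17896 and 33670 counts in PC3 replicates 1 to 3. LNCaP + DHT replicates held 75, 4 and 5 counts and LNCaP + vehicle replicates 42, 4 and 5. Every PC3 library was above every LNCaP library, and replicate 1 stood above replicates 2 and 3 in both LNCaP groups. The log2 fold change of PC3 cells was 9.54 against LNCaP + DHT (SE 0.69, edgeR adjusted p = 4.52e-06) and 10.13 against LNCaP + vehicle (SE 0.57, edgeR adjusted p = 1.24e-06). Without LNCaP + DHT replicate 1 the log2 fold change of IGFBP4 was 12.10, and without LNCaP + vehicle replicate 1 it was 12.03.

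IGFBP5 (chromosome 2, 216672105 to 216695549, minus strand) binds the extracellular matrix as well as the ligands, and its gene lies tail to tail with IGFBP2. Counts in PC3 replicates 1 to 3 were 4701, 4173 and 8506. LNCaP + DHT replicates held 47, 2 and 3 counts, and LNCaP + vehicle replicates 58, 26 and 23. PC3 libraries did not overlap with LNCaP libraries. The log2 fold change of PC3 cells was 8.13 against LNCaP + DHT (SE 0.62, edgeR adjusted p = 6.17e-06) and 6.98 against LNCaP + vehicle (SE 0.40, edgeR adjusted p = 1.36e-06). Without replicate 1 of the LNCaP group the values were 10.83 and 7.52.

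IGFBP6 (chromosome 12, 53097436 to 53102345, plus strand) prefers IGF2 over IGF1. It had 1995, 1524 and 1992 counts in PC3 replicates 1 to 3, against 18, 2 and 1 in LNCaP + DHT and 4, 2 and 2 in LNCaP + vehicle replicates. PC3 libraries again lay above all LNCaP libraries, most of which held 4 counts or fewer. The log2 fold change was 7.77 against LNCaP + DHT (SE 0.41, edgeR adjusted p = 7.79e-07) and 9.02 against LNCaP + vehicle (SE 0.18, edgeR adjusted p = 1.39e-08). Without replicate 1 of the LNCaP group the values were 9.87 and 9.42.

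PC3 replicate 3 held the most IGFBP4 and IGFBP5 counts of the PC3 libraries, but not the most IGFBP6 counts, and it also held 20 KLK3 counts against 2 and 2. Without it, the log2 fold changes against LNCaP + DHT were 9.27 for IGFBP4 and 7.77 for IGFBP5, and against LNCaP + vehicle 9.86 and 6.61.

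The low LNCaP counts of these genes moved with the PC3 markers in part. As a percentage of the PC3 mean, VIM was at 1.03%, 0.572% and 0.430% in LNCaP + DHT replicates 1 to 3 and at 0.320%, 0.10% and 0.130% in LNCaP + vehicle replicates 1 to 3. CD44 was at 0.667%, 0.241% and 0.186% with DHT and at 0.287%, 0.108% and 0.0860% with vehicle. Both of the 2 PC3 markers were thus highest in replicate 1 of each LNCaP group. IGFBP4 was at 0.344% of its PC3 mean in replicate 1 of LNCaP + DHT and at 0.218% in replicate 1 of LNCaP + vehicle, and between 0.0195% and 0.0247% in the other 4 LNCaP libraries. IGFBP5 was at 0.918%, 0.0414% and 0.0630% with DHT, but at 1.28%, 0.586% and 0.482% with vehicle, above both markers in each vehicle library. IGFBP6 was at 1.10%, 0.130% and 0.0658% with DHT and at 0.277%, 0.141% and 0.131% with vehicle, highest in replicate 1 of each group like the markers. The number of IGFBP5 counts per IGFBP4 count was 0.210 to 0.253 in PC3 libraries, 0.50 to 0.627 in LNCaP + DHT libraries and 1.38 to 6.50 in LNCaP + vehicle libraries. Whether RNA from PC3 cells contributed to the LNCaP counts was not tested.

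**Figure D3:**
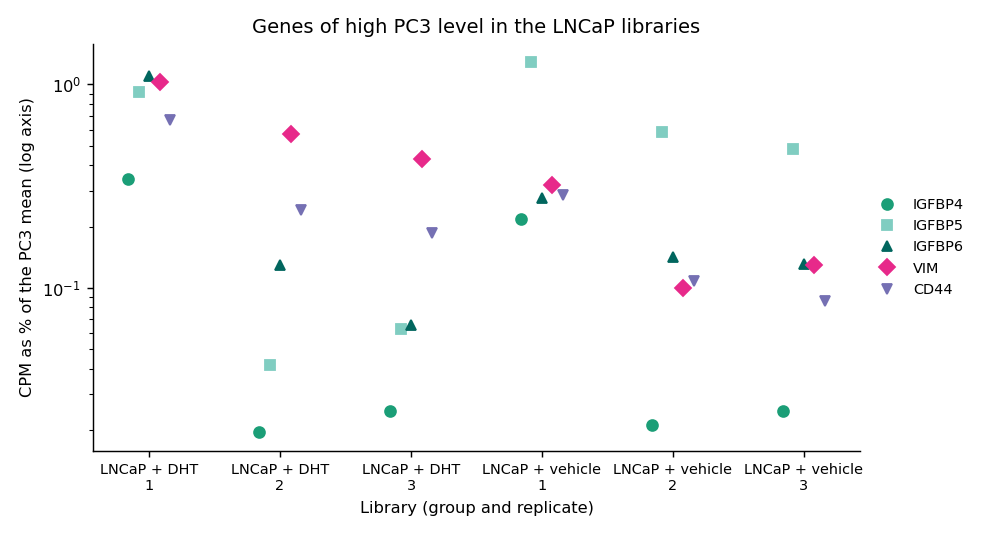
CPM of IGFBP4, IGFBP5, IGFBP6, VIM and CD44 in the 6 LNCaP libraries as a percentage of the PC3 mean, on a log axis. Points of 1 library are set apart sideways by gene. IGFBP4 lies at 0.0195% to 0.0247% outside the replicate 1 libraries, and IGFBP5 lies above VIM and CD44 in all 3 vehicle libraries.

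The promoters of these genes are shown because all 3 were higher in PC3 than in LNCaP libraries, and each covers the 250 bases before the transcription start in RefSeq (GRCh38.p14), 5′ to 3′ on the gene's strand. IGFBP4 lies at chr17:40443200-40443449 (plus strand), IGFBP5 at chr2:216695550-216695799 (minus strand) and IGFBP6 at chr12:53097417-53097666 (plus strand). Capitals mark the motif matches found.
IGFBP4: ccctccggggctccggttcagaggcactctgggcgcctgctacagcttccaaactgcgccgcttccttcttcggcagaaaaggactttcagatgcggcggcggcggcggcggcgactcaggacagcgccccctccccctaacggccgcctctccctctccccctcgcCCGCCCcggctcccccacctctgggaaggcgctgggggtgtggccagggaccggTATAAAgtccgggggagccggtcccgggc
IGFBP5: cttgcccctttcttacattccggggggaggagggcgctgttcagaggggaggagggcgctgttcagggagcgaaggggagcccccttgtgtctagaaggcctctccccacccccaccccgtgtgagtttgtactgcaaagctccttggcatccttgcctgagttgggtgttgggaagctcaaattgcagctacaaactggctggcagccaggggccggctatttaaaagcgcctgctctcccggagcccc
IGFBP6: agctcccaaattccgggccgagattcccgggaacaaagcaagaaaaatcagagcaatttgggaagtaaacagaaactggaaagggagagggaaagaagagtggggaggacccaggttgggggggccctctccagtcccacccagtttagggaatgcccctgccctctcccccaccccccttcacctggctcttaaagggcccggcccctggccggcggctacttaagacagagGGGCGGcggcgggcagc
6 motifs were searched on both strands: the androgen response element (an inverted repeat of the half-site AGAACA with 3 bases between), the half-site AGAACA itself, which any full element also holds, the GC box GGGCGG, the TATA box TATAAA, the AP-1 site TGACTCA and the E-box CACGTG. IGFBP4 held a GC box at position -83 and a TATA box at position -29, IGFBP6 a GC box at position -17, and IGFBP5 no match. Among 35116 promoter windows of the same length, 42.6% held a GC box and 10.7% a TATA box. The windows of IGFBP4, IGFBP5 and IGFBP6 held 24, 8 and 9 CpG, against a median of 11 over all windows. No motif of this list was found in all 3 windows.

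IGFBP2 and IGFBP3 led in LNCaP cells, and these were the binding proteins tested for an effect of DHT. IGFBP2 (chromosome 2, 216632828 to 216664436, plus strand) is an abundant binding protein of serum and of prostate epithelium. Its counts were 59, 50 and 54 in PC3 replicates 1 to 3. With DHT, LNCaP replicates held 724, 653 and 553 counts, and with vehicle 1396, 1380 and 1405. The 3 groups did not overlap with each other in counts or in CPM. Mean levels were 2.24 ± 0.114 CPM (SD, n = 3) in PC3, 31.0 ± 3.13 (SD, n = 3) in LNCaP + DHT and 72.1 ± 2.10 (SD, n = 3) in LNCaP + vehicle cells. DHT lowered IGFBP2 with a log2 fold change of -1.25 (SE 0.06, edgeR adjusted p = 1.02e-09), lower in each of the 3 libraries. PC3 cells had the lower level, with a log2 fold change of -3.80 against LNCaP + DHT cells (SE 0.12, edgeR adjusted p = 7.85e-08) and of -5.03 against LNCaP + vehicle cells (SE 0.08, edgeR adjusted p = 1e-08).

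IGFBP3 (chromosome 7, 45912245 to 45921874, minus strand), the main carrier of IGFs in serum, was the only binding protein with over 100 counts in every library. PC3 replicates 1 to 3 held 885, 745 and 585 counts. LNCaP + DHT replicates held 313, 219 and 277, and LNCaP + vehicle replicates 198, 123 and 172. The 3 groups did not overlap, although in CPM the lowest DHT library (10.7) and the highest vehicle library (10.4) nearly met. The log2 fold change of PC3 cells was 1.22 against LNCaP + DHT (SE 0.19, edgeR adjusted p = 0.000379) and 1.83 against LNCaP + vehicle (SE 0.21, edgeR adjusted p = 7.92e-05). When tested against a fold change of 2 instead of 0, the difference between PC3 and LNCaP + DHT no longer passed (adjusted p = 0.106 from edgeR). With DHT, IGFBP3 had a log2 fold change of 0.58 (SE 0.15, edgeR adjusted p = 0.00271), which passed the p threshold but stayed under the fold change of 2, beside 74.9% of all genes that passed the p threshold.

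The promoters of IGFBP2 and IGFBP3 are given because these genes had opposite signs under DHT. RefSeq gives IGFBP2 3 starts. The window before its canonical start lies at chr2:216633170-216633419 (plus strand), an upstream window before another RefSeq start of IGFBP2 at chr2:216632578-216632827 (plus strand), and that of IGFBP3 at chr7:45921273-45921522 (minus strand). Capitals mark motif matches as above.
IGFBP2, canonical start: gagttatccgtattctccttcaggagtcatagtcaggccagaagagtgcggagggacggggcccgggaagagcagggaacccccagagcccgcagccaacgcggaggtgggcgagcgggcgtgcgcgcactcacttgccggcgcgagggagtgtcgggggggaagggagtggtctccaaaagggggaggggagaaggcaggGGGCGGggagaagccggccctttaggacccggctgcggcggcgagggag
IGFBP2, upstream start: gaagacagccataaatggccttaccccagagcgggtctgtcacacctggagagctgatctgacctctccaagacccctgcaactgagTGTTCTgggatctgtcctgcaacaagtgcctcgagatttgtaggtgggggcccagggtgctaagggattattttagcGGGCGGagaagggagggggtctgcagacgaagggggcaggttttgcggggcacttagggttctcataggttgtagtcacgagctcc
IGFBP3: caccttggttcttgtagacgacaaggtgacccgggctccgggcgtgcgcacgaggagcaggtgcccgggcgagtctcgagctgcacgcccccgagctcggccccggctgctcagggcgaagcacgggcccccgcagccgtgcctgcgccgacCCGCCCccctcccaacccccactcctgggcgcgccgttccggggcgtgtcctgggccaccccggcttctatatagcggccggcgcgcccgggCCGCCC
No window held the full androgen response element, which 1 of the 35116 windows held. The half-site was found in the upstream window of IGFBP2, as TGTTCT at position -163, and in the window before the downstream IGFBP2 start (chr2:216659317-216659566, not printed) at position -246, and 12.4% of all windows held it. GC boxes were found in both printed IGFBP2 windows (positions -49 and -86), not in the downstream one, and at positions -98 and -6 of IGFBP3. The canonical IGFBP2 window held 22 CpG and that of IGFBP3 held 32. Neither the counts nor these letters say whether a receptor binds there.

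IGFBP5 was under the expression filter in the LNCaP libraries and was not part of the test of DHT. Its counts were lower with DHT than with vehicle at each replicate number (47 against 58, 2 against 26 and 3 against 23), but the groups overlapped because replicate 1 with DHT held more counts than replicates 2 and 3 with vehicle. Without a filter on low counts the log2 fold change of IGFBP5 was -1.17 (adjusted p = 0.0715 from edgeR). When both replicate 1 libraries were also left out, an alternative chosen after seeing the data, it was -3.29 (SE 0.49, edgeR adjusted p = 0.000119). With the replicate number as a block instead, also chosen after seeing the data, it was -1.27 (SE 0.26, edgeR adjusted p = 2.17e-06). IGFBP4 and IGFBP6 did not pass in any of these 3 fits.

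IGFBP1 and IGFBP7 were at or near the counting limit. IGFBP1 (chromosome 7, 45888360 to 45893660, plus strand), which the liver secretes under control of insulin and whose gene neighbours IGFBP3, had 2, 6 and 4 counts in PC3 replicates and 0 in each LNCaP library. With 3 counts allowed in each LNCaP library, its mean CPM in PC3 cells was 1.17 times the limit in LNCaP + DHT cells and 1.09 times that in LNCaP + vehicle cells. PC3 replicate 1, with 2 counts, lay under this limit, so these values set no minimum difference. IGFBP7 (chromosome 4, 57030773 to 57110385, minus strand) had 0 to 2 counts in each of the 9 libraries on its own strand. On the opposite strand, 230 to 391 reads per library lay on IGFBP7, where the 3′ end of POLR2B overlaps it by 386 bases (57030773 to 57031158). POLR2B, a subunit of RNA polymerase II on the plus strand, had 5785 to 8970 counts, and counting without strand removed 217 to 359 of them per library. IGFBP7-AS1, which also overlaps IGFBP7 on the plus strand, had 0 counts in every library. In the unstranded column IGFBP7 itself stayed at 0 to 2 counts, since reads in the overlap then belong to neither gene.

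Genes that act with the ligands and binding proteins were then examined in 5 lists. Of the 9 receptors and adaptors, 8 passed the filter between the LNCaP groups, and 4 were called, 2 higher and 2 lower with DHT, beside 14.0% of all genes called (6.54% higher and 7.49% lower). IGF1R, the signalling receptor for both ligands, had 4334, 3935 and 3771 counts with DHT and 392, 280 and 279 with vehicle, without overlap. Its log2 fold change was 3.53 (SE 0.09, edgeR adjusted p = 1.79e-12). PC3 libraries held 686, 627 and 705 IGF1R counts, fewer than LNCaP + DHT, with a log2 fold change of -2.81 (SE 0.06, edgeR adjusted p = 1.57e-08), while the value against LNCaP + vehicle was 0.74 (SE 0.14, edgeR adjusted p = 0.00162), under the fold change of 2. The sign of IGF1R between the lines thus differed with the LNCaP group it was set against.

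GRB10, an adaptor that restrains IGF1R and insulin receptor signalling, had 2832, 2631 and 2530 counts with DHT and 14781, 15897 and 15942 with vehicle. It was lower with DHT, with a log2 fold change of -2.68 (SE 0.05, edgeR adjusted p = 9.83e-14), again without overlap. GRB14, a related adaptor, was lower with DHT at -1.05, and IRS2, a docking protein of the receptors, was higher at 1.54. GRB14 passed the filter through the vehicle libraries alone (76 to 95 counts, against 39 to 48 with DHT). Its call, close to the fold change of 2, therefore followed in part from the filter. IGF1R and GRB10 therefore moved in opposite directions with DHT, while IGFBP2 fell and IGF1 did not pass the test.

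**Figure D4:**
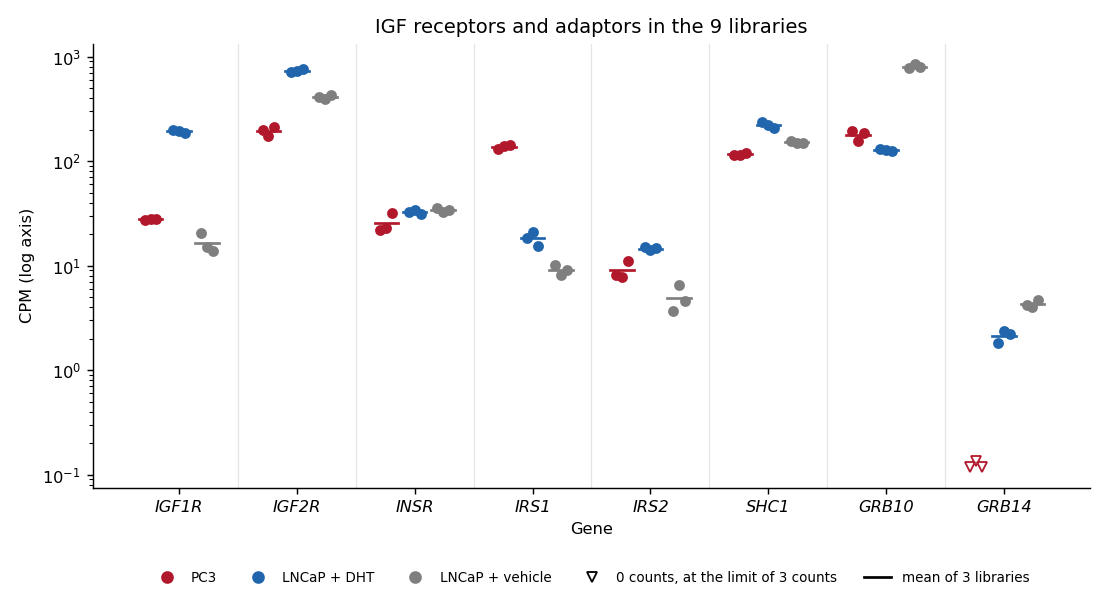
CPM of 8 IGF receptors and adaptors in each library on a log axis, with a line at the mean of 3 libraries, and open triangles for libraries with 0 counts at the limit of 3 counts. IGF1R is high and GRB10 low with DHT relative to vehicle, IRS1 is highest in PC3 libraries, and GRB14 has 0 counts in all 3 PC3 libraries.

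Between the lines, 3 of 7 receptors and adaptors tested were called against LNCaP + DHT (1 higher, 2 lower in PC3) and 4 of 8 against LNCaP + vehicle (1 higher, 3 lower), beside 46.0% and 43.2% of all genes, so these counts were near the background. The count against LNCaP + vehicle includes GRB14, which passed the filter through the vehicle libraries alone. IRS1, the other main docking protein, was the higher one in both, at log2 fold changes of 2.91 and 3.90. IGF2R was lower in PC3 cells at -1.91 and -1.09. The median log2 fold change of the receptors and adaptors was -0.70 against LNCaP + DHT, -0.42 against LNCaP + vehicle and 0.66 for DHT against vehicle, where the median over all genes was -0.01.

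Of 10 proteases of the binding proteins and their partners, 6 passed the filter between the lines, and in each comparison all 6 were called (4 with the higher and 2 with the lower level in PC3), beside 46.0% and 43.2% of all genes. KLK2 and ADAM12 were among those that passed the filter through 1 line only, and so was HTRA1 against LNCaP + DHT. Such calls followed in part from the filter. In LNCaP + vehicle libraries HTRA1 was near the filter, at 2.58 to 3.35 CPM. HTRA1, a serine protease that cleaves IGFBP5, had 2996, 2891 and 3775 counts in PC3 libraries, 17, 7 and 5 in LNCaP + DHT and 64, 54 and 52 in LNCaP + vehicle libraries, without overlap between any groups. Its log2 fold change in PC3 cells was 8.13 against LNCaP + DHT (SE 0.24) and 5.48 against LNCaP + vehicle (SE 0.13). ADAM12, a metalloproteinase that cleaves IGFBP3 and IGFBP5, was higher at 5.07 and 3.07. The kallikreins KLK2 and KLK3 went the other way. KLK2 had 0 counts in each PC3 library. Within LNCaP cells KLK2 was higher with DHT at 4.17 (SE 0.12) and KLK3 at 2.89 (SE 0.10). These were the 2 genes called among 3 tested, beside 14.0% of all genes called (6.54% higher). PAPPA and PAPPA2, the proteases of IGFBP4 and IGFBP5, had 4 counts or fewer in every library, and IGFALS, which holds IGF with IGFBP3 in the serum complex, 6 or fewer.

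Of the 4 genes for IGF2 mRNA binding proteins and H19, 2 passed the filter between the lines. IGF2BP2 passed it through PC3 cells alone (7658 to 11210 counts, against 1 to 55 in LNCaP libraries), so its call followed in part from the filter. Both genes were called higher in PC3 cells, beside 24.0% and 22.2% of all genes called higher. Against LNCaP + DHT and LNCaP + vehicle, IGF2BP2 was at 8.15 and 9.73 and IGF2BP3 at 1.40 and 1.25. These proteins bind IGF2 mRNA, which had 0 to 2 counts in the same libraries. With DHT, IGF2BP3 was the gene tested and was not called (log2 fold change -0.18, adjusted p = 0.178 from edgeR).

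Of 13 other proteins with an IGFBP domain, 8 passed the filter between the lines, and all 8 were called in both comparisons, each with the higher level in PC3, beside 24.0% and 22.2% of all genes called higher. IGFBPL1 of the same list was under the filter and went the other way. It had 1, 1 and 0 counts in PC3, 3, 3 and 5 in LNCaP + DHT and 21, 12 and 18 in LNCaP + vehicle replicates 1 to 3. The median log2 fold change of the 8 genes tested was 5.82 against LNCaP + DHT and 5.27 against LNCaP + vehicle. Against LNCaP + DHT the largest values were those of ESM1, a secreted proteoglycan, at 8.29 and HTRA1 at 8.13, and against LNCaP + vehicle those of CCN2 (connective tissue growth factor) at 10.36 and ESM1 at 9.29. CCN2, CCN3, ESM1 and HTRA3 were under 3 CPM in every LNCaP library, and HTRA1 was in every LNCaP + DHT library. These genes reached the filter through PC3 cells, so their calls and the medians above followed in part from it. Only CCN1 and KAZALD1 were above 3 CPM in every library. With DHT, CRIM1, a transmembrane protein, was the 1 gene called of 3 tested, at 1.28 (SE 0.18, edgeR adjusted p = 2.21e-05). CRIM1 passed the filter through its DHT libraries (5.76 to 7.44 CPM, against 1.92 to 3.32 with vehicle). Its call thus followed in part from the filter. The share called over all genes was 14.0% (6.54% higher).

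Of 19 genes for PI3K, AKT, TOR and FOXO, through which IGF1R signals, 8 were called against LNCaP + DHT (3 higher and 5 lower in PC3) and 7 against LNCaP + vehicle (3 higher and 4 lower), near the 46.0% and 43.2% of all genes called. The catalytic subunit PIK3CA was higher at 2.24 and 2.30, while the regulatory subunit PIK3R1 was lower at -2.65 and -3.98. With DHT, 3 of 18 were called, beside 14.0% of all genes, MTOR at 1.94 and FOXO1 at 1.10 higher and PIK3R1 at -1.35 lower.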

How the data were processed

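RNA was measured in 9 libraries of human cell lines. After adapter trimming, the authors mapped the reads to hg38 and took out PCR duplicates. The submitters' processing notes name cutadapt 4.1, STAR 2.7.7a and UMI-tools 1.1.2, and the study's methods name other versions of the first and second tool. The authors deposited counts, whole reads per gene and library without normalization, as 1 table and as separate STAR files, whose forward-strand column equals the table in all 253944 values. Every library column was used, and 20.3% to 25.4% of the reads of a library lay on no gene.

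From these counts, edgeR 4.0.16 (R 4.3.3) fitted each comparison on its 6 libraries with TMM scaling and the quasi-likelihood F test, with Benjamini-Hochberg adjustment over all genes tested. This test prints no standard error. The SE given here is the absolute log2 fold change divided by the square root of the F statistic, and it is approximate where a group has few counts. The study's methods add a batch term, which was left out because no source used here names the batches. Gene positions and exon lengths come from GENCODE 44 (GRCh38), in which 25696 symbols (91.07%) were found, and promoter sequences from RefSeq (GRCh38.p14), in which 6 of the 9 genes matched. DESeq2 1.42.0 served as an alternative. The fits were tested on simulated data.

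Replicate numbers are shared between groups. Over 10910 genes, deviations from the group mean correlated between LNCaP + DHT and LNCaP + vehicle libraries of the same number at 0.161, 0.226 and 0.202. LNCaP libraries may thus be paired by number, on the evidence of the counts and not of any label. The main fits and their p-values left this pairing out, and the replicate number as a block was run as an alternative. No replicates were identical.

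The genes and lists were chosen with earlier results of these data known. Named beside the 9 genes are up to 2 called genes with the largest rise and 2 with the largest fall of each list and comparison, and the 3 genes most correlated with each of the 9. Genes of the lists with counts at or near 0 were named after their values were seen. Some genes that this rule covers are not reported here.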

Additional observations from a re-analysis of the deposited data

Results flagged for a closer look

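Reads on the strand opposite to a gene were not part of any comparison and exceeded the limit of 3 counts in all 3 libraries of a group for these genes. On IGFBP7, the median per library was 353 in PC3, 283 in LNCaP + DHT and 236 in LNCaP + vehicle cells, while its own strand had 0 to 2, and POLR2B overlaps its 3′ end there. The other 4 cases lay on highly expressed genes. In PC3 libraries the median was 143 on IGFBP4, 33 on IGFBP5 and 16 on IGFBP6, and in LNCaP + vehicle libraries it was 9 on IGFBP2. Their source was not tested.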

How the results depend on the processing

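No log2 fold change changed sign under any alternative run, for the 6 genes tested between the lines and the 3 tested between the LNCaP groups. Of 120 counts of calls, 105 were within 1.5 times the main count, and 291 of 293 values of single genes stayed on the same side of the call. Without a filter on low counts, 9147, 8713 and 2941 genes were called for PC3 against LNCaP + DHT, PC3 against LNCaP + vehicle and DHT against vehicle, in place of 5773, 5485 and 1641, and 7 of the 9 genes in place of 6 in each comparison of the lines (IGFBP1 added). Without the filter and both replicate 1 LNCaP libraries (chosen after seeing the data) the counts were 8705, 8301 and 2609, and with the adjusted p alone 10530, 10577 and 8763. At no fewer than 10 counts in every library, 2 and 3 of the 9 genes were called between the lines in place of 6 and 6, because fewer of them were tested. Between the LNCaP groups, 2 of the 9 were called in place of 1 with the adjusted p alone (IGFBP3 added, log2 fold change 0.58), and 2 without the filter and the replicate 1 libraries (IGFBP5 added). Against a fold change of 2, IGFBP3 (1.22) was not called for PC3 against LNCaP + DHT. Leaving out 1 library at a time gave 5717 to 5830, 5415 to 5616 and 1601 to 1686 genes, and 6, 6 and 1 of the 9.

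With the replicate number as a block, 5756, 5495 and 1638 genes were called, and no call among the members tested changed. Without the filter, the block gave 2818 genes and 2 of the 9 between the LNCaP groups (chosen after seeing the data). PC3 libraries share only a number with LNCaP libraries (same-number correlations -0.0606, 0.0547 and -0.190 with DHT, 0.0736, -0.192 and -0.0213 with vehicle). The cause of the other changes was not tested. Levels of IGF2, IGFBP1 and IGFBP7 are limited by depth.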

Other observations

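The genes whose log2 CPM over the 9 libraries was most like that of a member were ranked by Pearson correlation among 12843 genes. These are descriptions without a test, since the libraries fall into 3 groups that share cell line and treatment. IGF1 was most like ZNF879, PCGF3 and STAT5B (0.999 each), and STAT5B encodes a transcription factor of growth hormone signalling. IGFBP2 was most like APCDD1, LRBA and EGLN3, and IGFBP3 was most like LSM6 (0.991), CCDC86 and GTF2F1. IGFBP4 was most like MIR100HG, APOBEC3C and SULF2, IGFBP5 like PRSS3 (0.994), NEURL1 and SOCS6, and IGFBP6 like SLC25A43, LINC01116 and the membrane metalloproteinase MMP14.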
